A study of Mus musculus with 16 samples.

Results

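Antigen presentation on MHC class II was followed gene by gene in the sorted colonic epithelial libraries. The genes were 10, chosen by name: *H2-Aa*, *H2-Ab1* and *H2-Eb1* (surface chains), *Cd74* (invariant chain), *H2-DMa*, *H2-DMb1* and *H2-DMb2* (peptide exchange), *H2-Oa* and *H2-Ob* (inhibitors of that exchange) and *Ciita* (regulator). Of these, 9 were found among the 22396 gene symbols of both deposited tables, and *H2-Eb1* was not analysed here. *Cd52* (a surface glycoprotein of leukocytes), *Cd68* (a lysosomal protein of macrophages) and *Cd79a* (a part of the B cell receptor) were set beside them.

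The libraries came from EpCAM+ cells sorted from the distal colon of 16 mice, which were 8 weeks old at the start by the study's methods. Controls carried only the floxed alleles (Tnfr2-f/f), and mice labelled knockout carried Vil1::Cre in addition, in which the villin promoter drives Cre in intestinal epithelium to remove exon 2 of *Tnfrsf1b*, the gene of TNFR2. Water was given to 4 controls and 5 mice labelled knockout, and dextran sulfate sodium (DSS), which injures the colonic epithelium, to 3 controls and 4 mice labelled knockout. By the labels DSS was given at 3% for 6 days and every mouse was dissected on day 12, whereas the paper's text gives another concentration and an earlier day for uninjured mice. After DSS the injured regions were taken. The water-treated mice were the 4 males of a cage (controls 1 and 3, labelled knockouts 1 and 2) and the 5 females of another, and the DSS-treated mice were 7 females of 2 further cages, and the effects of treatment and cage cannot be told apart. *Tnfrsf1b* had 11.1 to 15.5 TPM among water-treated controls against 9.23 to 14.8 in the mice labelled knockout, and 13.3 to 22.2 against 13.5 to 27.0 after DSS. The ranges overlapped in both treatments, and since a TPM of whole transcripts does not measure the floxed exon, the mice are called by their labels.

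Values are listed as TPM, a relative abundance corrected for transcript length, and a gene's value is the sum of its listed transcripts. The listed values did not sum to the same total in every library. The tables of water-treated and DSS-treated mice were normalized separately. For this reason levels are given side by side across treatments with no test, and tests were run only within a treatment. Read counts cannot be had from TPM, and the depth behind each value is therefore unknown.

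Class II molecules display peptides from engulfed or lysosomal proteins to CD4+ T cells. An alpha and a beta chain assemble with the invariant chain, which is cut away in the endosome, and H2-M (the H2-DM chains) then exchanges its remnant for other peptides while H2-O (*H2-Oa* with *H2-Ob*) holds H2-M back. CIITA switches the genes of the surface chains, the invariant chain and H2-M on together, steadily in B cells, dendritic cells and many macrophages, and in epithelial and other cells after interferon-gamma.

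Of the 10 genes, 8 lie on mouse chromosome 17 within 224.3 kb of GRCm38 (from 34092340 to 34316674, GENCODE M21), all protein-coding. *Ciita* lies on chromosome 16 (10480059 to 10528418, plus strand). Class II promoters carry an X box, an X2 box and a Y box, to which RFX, CREB and NF-Y proteins bind and on which CIITA docks. The 250 bases before the start were searched on both strands, in the RefSeq promoter entries on GRCm38.p6, for TGATTGG (Y box), AGNAAC (X box) and TGATGC (X2 box), letters chosen after the promoters were read. There were 8 entries for 7 of the class II genes. The Y box letters were held by 6 of the 8 entries and by 7.23% of all 32851 promoters, the X box letters by 4 and 42.3%, and the X2 box letters by 4 and 9.18%. An X box 15 to 60 bases before a Y box on the same strand was held by 4 entries (*H2-DMb1*, *H2-Oa*, *H2-Ob* and *H2-Eb1*) and by 0.365% of all promoters. In *H2-DMa* neither of the 2 entries held any of these letters. Since the letters were chosen after these promoters were read, the counts beside the shares of all promoters are a description and no test.

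The stretches around the Y box are shown for a surface chain, a chain of peptide exchange and both inhibitors, whose levels are given below. They let the letters held by each be compared. Capitals mark the X box, X2 box and Y box letters in that order where present, and each is written 5′ to 3′ on the gene's strand.
*H2-Aa* (surface alpha chain, chr17:34287859-34287918, minus strand): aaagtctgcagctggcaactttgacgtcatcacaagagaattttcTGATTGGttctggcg
*H2-DMb2* (peptide exchange, chr17:34145112-34145171, plus strand): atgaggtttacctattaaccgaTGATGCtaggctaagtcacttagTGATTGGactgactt
*H2-Oa* (inhibitor, chr17:34092289-34092348, plus strand): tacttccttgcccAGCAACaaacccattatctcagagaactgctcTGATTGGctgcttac
*H2-Ob* (inhibitor, chr17:34238801-34238860, plus strand): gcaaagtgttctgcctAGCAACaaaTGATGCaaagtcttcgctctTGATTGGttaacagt
The Y box begins 50 bases before the start in *H2-Aa*, 92 in *H2-DMb2*, 45 in *H2-Oa* and 59 in *H2-Ob*. The X box begins 32 bases before the Y box in *H2-Oa* and 29 in *H2-Ob*. The letters searched for the X box were absent from the windows of *H2-Aa* and *H2-DMb2*. The *H2-Aa* stretch holds ggcaac and the *H2-DMb2* stretch attaac, each a single base away from AGNAAC. Boxes with other letters are missed by such a search, so the absence of the letters does not show that an X box or X2 box is lacking.

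In the uninjured colon the surface chains and the invariant chain were abundant in the sorted libraries. *H2-Aa* had 983, 602, 429 and 802 TPM among water-treated controls (mean 704 ± 240, SD, n = 4) and 650, 497, 689, 947 and 797 TPM among mice labelled knockout (716 ± 168, n = 5). Its partner *H2-Ab1* had 797, 458, 333 and 666 TPM among controls (564 ± 208) and 498, 402, 604, 698 and 676 TPM among mice labelled knockout (576 ± 125). *Cd74*, which lies outside that cluster on chromosome 18 (60803848 to 60812652, plus strand), followed with 552, 399.6, 255 and 510.0 TPM (429 ± 133) and 361, 323, 476, 611 and 521 TPM (458 ± 118). Control 3 was the lowest and either control 1 or labelled knockout 4 the highest water-treated mouse for all of these genes, and the genotypes overlapped.

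After DSS the same 3 genes had 1.91 to 24.2 TPM. *H2-Aa* had 5.67, 7.67 and 24.2 TPM among controls (12.5 ± 10.2, n = 3) and 9.49, 12.5, 14.1 and 5.96 TPM among mice labelled knockout (10.5 ± 3.57, n = 4). *H2-Ab1* had 9.26, 3.20 and 17.3 TPM (9.92 ± 7.08) and 6.58, 6.81, 6.15 and 4.72 TPM (6.06 ± 0.940). *Cd74* had 3.04, 2.51 and 13.4 TPM (6.32 ± 6.15) and 4.43, 3.98, 6.32 and 1.91 TPM (4.16 ± 1.81). Control 3 was the highest DSS-treated mouse for each, and every DSS-treated mouse lay below every water-treated mouse of its genotype. The ratio of the group means, water over DSS, was 56.3 for *H2-Aa*, 56.8 for *H2-Ab1* and 67.9 for *Cd74* in the controls. In the mice labelled knockout these ratios were 68.2, 94.9 and 110.2.

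**Figure D1:**
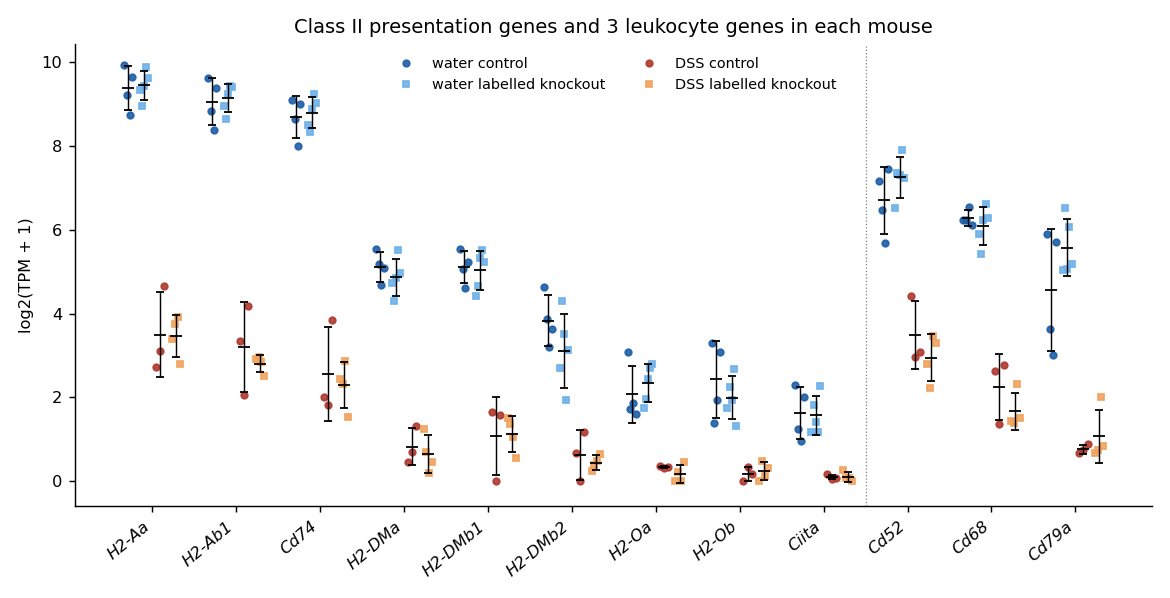
Level of each class II gene found and of 3 leukocyte genes, as log2(TPM + 1), with 1 point a mouse and the mean and SD of each group in black. The DSS-treated mice (red and orange) sit below the water-treated mice (blue) for every gene shown, and the genotypes overlap within a treatment. Of the class II genes, *H2-Aa*, *H2-Ab1* and *Cd74* are the highest in both treatments.

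The chains of H2-M stood at 45.9 TPM or lower in every mouse. *H2-DMa* had 45.4, 35.7, 24.5 and 33.0 TPM among water-treated controls and 25.5, 18.7, 27.9, 44.7 and 30.3 TPM among mice labelled knockout. After DSS it had 0.366, 0.630 and 1.47 TPM among controls and 1.39, 0.634, 0.146 and 0.363 TPM among mice labelled knockout. The beta chain gene *H2-DMb1* had 23.6 to 45.9 TPM among water-treated controls and 20.5 to 45 TPM among mice labelled knockout, against 2.13, 0 (as listed) and 1.98 TPM and 0.471 to 1.86 TPM after DSS. Its neighbour *H2-DMb2*, which encodes another beta chain, had 8.22 to 23.8 TPM and 2.81 to 18.6 TPM in water, and at most 1.27 TPM in any mouse after DSS. Reads of these neighbours can be confused: 517 of the 1374 windows of 31 bases in the listed *H2-DMb1* transcript (37.6%) also occur in *H2-DMb2* transcripts. In the listed *H2-DMb2* transcript, 634 of the 1394 windows (45.5%) also occur in other genes. The division between the neighbours is therefore uncertain, and so is the level of *H2-DMb2*.

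The H2-O chains and the regulator were the scarcest. *H2-Oa* had 7.54, 2.32, 2.63 and 2.04 TPM among water-treated controls and 2.37 to 6.01 TPM among mice labelled knockout, and after DSS no mouse exceeded 0.370 TPM. *H2-Ob*, its partner, had 8.92, 1.63, 2.82 and 7.43 TPM and 1.5 to 5.39 TPM, and after DSS no mouse exceeded 0.407 TPM. *Ciita* had 3.92, 1.36, 0.951 and 3.05 TPM among water-treated controls and 1.27, 2.54, 1.66, 1.27 and 3.82 TPM among mice labelled knockout. After DSS it had 0.121, 0.0368 and 0.0572 TPM among controls and 0.212, 0.0502, 0.0593 and 0 (as listed) TPM among mice labelled knockout. At such levels a TPM rests on few reads, whose number is not given.

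The order of the levels by mean was *H2-Aa*, *H2-Ab1*, *Cd74*, *H2-DMb1*, *H2-DMa*, *H2-DMb2*, *H2-Ob*, *H2-Oa* and *Ciita* in water. After DSS it was the same except that *H2-Oa* stood above *H2-Ob*. In water *H2-Aa* exceeded *H2-Ab1*, and *H2-Ab1* exceeded *Cd74*, in 9 of 9 mice. The wide step lay between *Cd74* (at least 255 TPM) and *H2-DMb1* (at most 45.9 TPM), the only neighbours in water whose ranges did not overlap. *H2-Ob* exceeded *H2-Oa* in 5 of 9 water-treated mice, and *H2-DMb1* exceeded *H2-DMa* in 6 of 9, so these neighbours did not differ beyond their spread. *H2-Aa*, *H2-Ab1* and *Cd74* held 94.2 to 96.3% of the summed TPM of the 9 genes in water and 83.7 to 93.8% after DSS. That sum was 1080 to 2468 TPM in the water-treated mice (median 1855) and 14.5 to 60.1 TPM in the DSS-treated mice (median 24.1).

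Set on the scale of log2(TPM + 1), all 9 genes were lower after DSS in both genotypes. The median of the 9 differences, DSS minus water, was −4.04 in the controls (range −6.13 to −1.53) and −3.92 in the mice labelled knockout (−6.51 to −1.47), while over the 11247 genes whose mean reached 1 TPM the medians were 0.32 and 0.31. The added 1 TPM understates the difference of genes that are low after DSS. With 0.1 TPM added instead, the differences in the controls were −5.39 for *H2-DMa* (−4.30 with 1 TPM), −5.45 for *H2-DMb1* (−4.04), −4.86 for *H2-DMb2* (−3.22) and −3.64 for *Ciita* (−1.53), and the medians of the 9 were −5.39 and −4.71. The ranges of water and DSS did not overlap for 9 of 9 class II genes in the controls and 9 of 9 in the mice labelled knockout. Over all genes, 8.12% lay below water in every DSS-treated control and 10.1% in every DSS-treated mouse labelled knockout. Of the 9, *H2-DMa*, *H2-DMb2*, *H2-Oa*, *H2-Ob* and *Ciita* had a mean under 1 TPM after DSS and were among these genes only through their level in water, so their count and the median are given as a description. *H2-Aa*, *H2-Ab1*, *Cd74* and *H2-DMb1* reached 1 TPM in both treatments. With all 16 mice rescaled together the class II differences ran from −6.83 to −1.58, and with each mouse divided by its epithelial markers from −6.51 to −1.495, so the direction held under these scalings. Fewer cells with class II transcripts and less class II RNA per cell cannot be told apart in such bulk libraries.

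**Figure D2:**
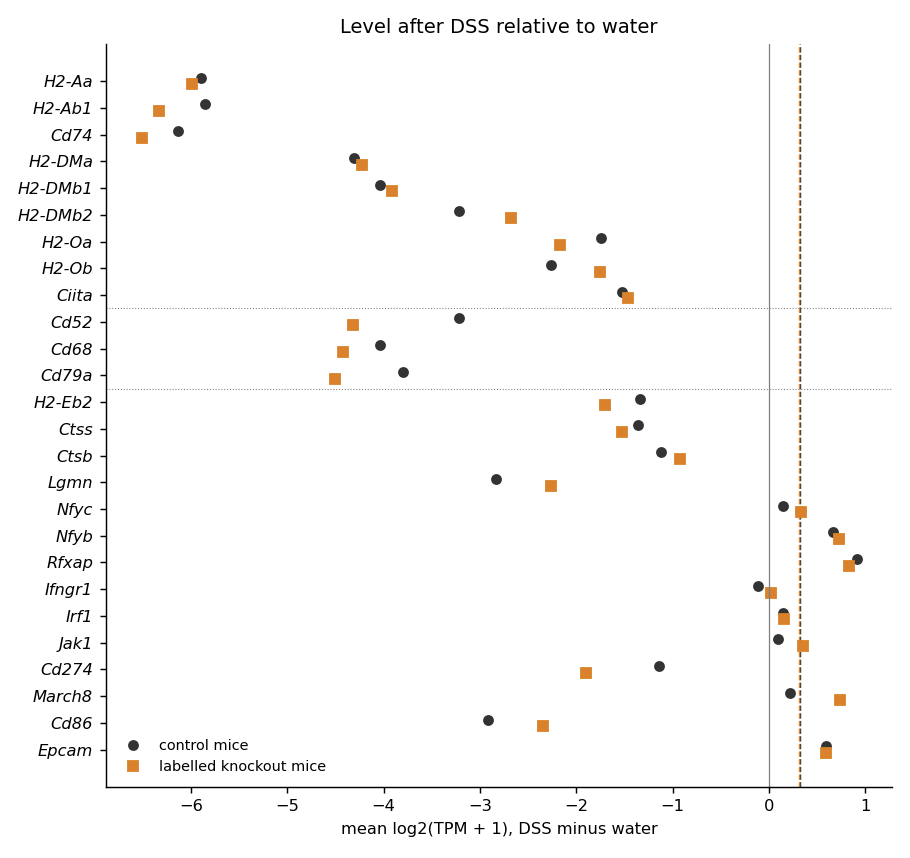
Difference of the mean log2(TPM + 1) between DSS-treated and water-treated mice for each class II gene (top), the 3 leukocyte genes (middle) and other genes of the pathway with *Epcam* (bottom), in control (black) and labelled knockout (orange) mice, with no test. Dashed lines mark the median of all genes (0.32 and 0.31), and the 9 class II genes lie between −6.51 and −1.47.

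Leukocyte transcripts were lower after DSS as well. *Cd52* had 50.8 to 238 TPM in the 9 water-treated mice and 3.65 to 20.5 TPM in the 7 DSS-treated mice. *Cd68* had 41.7 to 96.9 TPM and 1.56 to 5.82 TPM, and *Cd79a* 7.13 to 91.1 TPM and 0.591 to 3.05 TPM. Their differences on the log2(TPM + 1) scale were −3.22, −4.03 and −3.80 in the controls and −4.32, −4.42 and −4.51 in the mice labelled knockout. The summed level of 11 macrophage markers was 1261 to 2872 TPM in water and 79.8 to 165 TPM after DSS, and 10 of the 11 were lower without overlap in each genotype. The 9 dendritic cell markers summed to 12.1 to 56.4 TPM and 0.480 to 2.44 TPM, with 6 of 9 lower without overlap in each genotype. The defining marker *Clec9a* was listed at 0 in all 7 DSS-treated mice, but also in 2 of 4 water-treated controls and 1 of 5 water-treated mice labelled knockout. The 12 B cell markers, *Cd79a* among them, summed to 13.6 to 127 TPM and 1.66 to 5.67 TPM, with 4 of 12 lower without overlap in controls and 5 among mice labelled knockout. The 8 T cell markers summed to 8.90 to 38.5 TPM and 0.1 to 2.74 TPM, with 4 and 2 of 8 lower without overlap. In each genotype after DSS, 1 of the 12 B cell markers and 0 of the dendritic and T cell markers reached a mean of 1 TPM. Their counts without overlap thus rest largely on the level in water and are a description. The shares over all genes given earlier came from genes filtered by level, and these lists were not so filtered. In contrast to the leukocyte markers above, 8 epithelial markers summed to 4683 to 6460 TPM in water and 4638 to 7590 TPM after DSS. The 5 neutrophil markers summed to 10.2 to 29.2 TPM and 49.8 to 1929 TPM, with 2 of the 5 higher without overlap in controls and 3 among mice labelled knockout. The share of all genes higher without overlap was not counted, so the neutrophil counts are a description. The part of the leukocyte transcripts in the class II difference was not tested.

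Ratios of genes within a library do not depend on how the tables were scaled. *H2-Aa* over *H2-Ab1* was 1.14 to 1.36 in the 9 water-treated mice (median 1.24), and 0.612 to 2.40 in the DSS-treated mice (median 1.44). *Cd74* over *H2-Ab1* was 0.693 to 0.874 in water and 0.328 to 1.03 after DSS. The proportions of these 3 transcripts were narrow in water and wider around overlapping values after DSS.

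Against the leukocyte genes the ratios differed by the gene chosen. *Cd74* over *Cd52* was 1.99 to 5.01 in water (median 3.49) and 0.149 to 1.80 after DSS (median 0.626), without overlap. *Cd74* over *Cd68* was 2.74 to 7.75 (median 6.36) and 0.583 to 2.61 (median 1.61), also without overlap. *H2-Ab1* over *Cd52* was lower after DSS in every mouse as well (2.47 to 6.56 against 0.453 to 2.32), whereas the *H2-Ab1* to *Cd68* ratio (3.59 to 10.7 against 1.54 to 4.19) and both ratios of *H2-Aa* overlapped. Over *Cd79a* all 9 class II genes overlapped between treatments. Over *C1qa*, a complement gene of tissue macrophages, *Cd74* was 0.762 to 1.69 in water (median 1.45) and 1.08 to 3.29 after DSS (median 1.91), and *H2-Aa* was 1.29 to 2.92 and 2.06 to 10.1. *Cd74* was thus lower relative to *Cd52* and *Cd68* but not, beyond the spread between mice, relative to *Cd79a* or *C1qa*. The overlap over *Cd79a* says little, since *Cd79a* stood at 0.591 to 3.05 TPM after DSS. *Cd68* was also low there, at 1.56 to 5.82 TPM. The mean of *C1qa* was 323 TPM in water and under 5 TPM after DSS. The ratios over *Cd68* and *C1qa* after DSS are therefore uncertain as well, and so is the contrast between these genes. *Cd74* over *Cd79a* also ran from 3.54 to 35.7 among the water-treated mice alone. No test was run on these ratios across treatments.

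**Figure D3:**
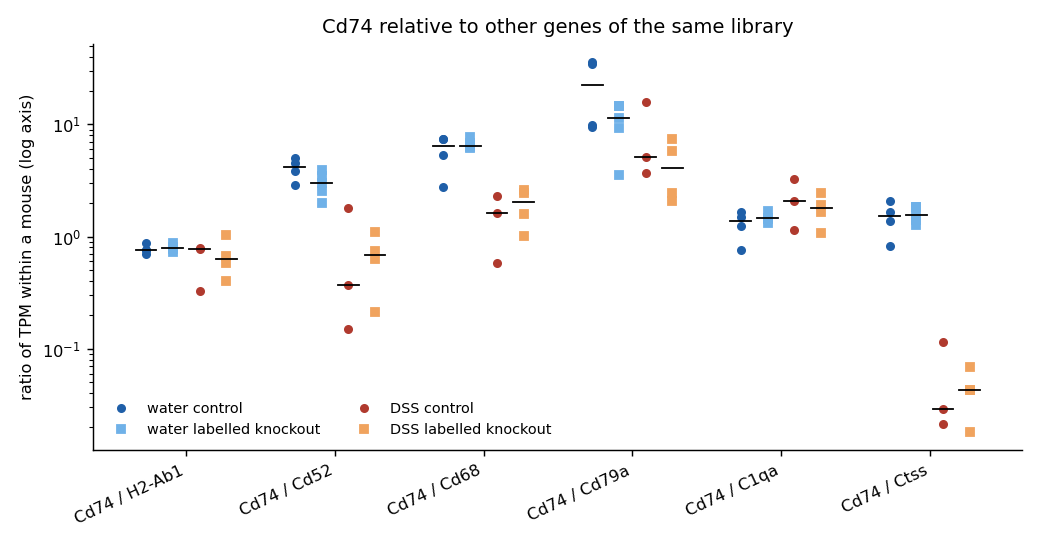
Ratio of the TPM of *Cd74* to that of another gene of the same mouse, on a log axis, with 1 point a mouse and a black line at the median of each group. The ratios to *H2-Ab1*, *Cd79a* and *C1qa* overlap between water and DSS, those to *Cd52* and *Cd68* are lower in every DSS-treated mouse, and that to *Ctss* goes from at least 0.816 to at most 0.114.

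Within the water-treated mice, class II genes varied together and in part with *Cd52*. Pearson's r between *H2-Aa*, *H2-Ab1* and *Cd74* was 0.96 to 0.98 across the 9 mice, and 32 of the 36 pairs of class II genes had a positive r, with a median of 0.51. *H2-DMb2* had the 4 negative values. The correlation of *Cd74* with *Cd52* was r = 0.80 (exact permutation p = 0.00837, n = 9 mice) with a Spearman's rho of 0.55 (exact permutation p = 0.133). For *H2-Ab1* r was 0.73 (exact permutation p = 0.0225) with a rho of 0.48 (p = 0.194), and for *H2-Aa* 0.71 (exact permutation p = 0.0311) with a rho of 0.53 (p = 0.148). *H2-DMb1* had an r of 0.67 (exact permutation p = 0.0447) and a rho of 0.48 (p = 0.194). Without controls 2 and 3, the mice farthest from the median of *Cd52*, r was 0.57 for *Cd74*, 0.33 for *H2-Ab1*, 0.35 for *H2-Aa* and 0.68 for *H2-DMb1*, so the relation of the surface chains rested largely on those mice. Taken as deviations from the mean of each cage, r was 0.74 for *Cd74*, 0.66 for *H2-Ab1* and 0.64 for *H2-Aa*. The cages hold 4 and 5 mice, too few for a value within each. Among 54 correlations computed (9 genes, 3 leukocyte genes and 2 treatments), 6 had an exact permutation p under 0.05 by Pearson's r.

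The slopes on each leukocyte gene were also fitted for all genes by limma with Benjamini-Hochberg adjustment. On *Cd52* in water, 0.652% of 11045 genes had a positive slope called at an adjusted p under 0.05, and 0 of the 9 class II genes were called. The slope was 0.50 for *Cd74* (standard error 0.13, limma adjusted p = 0.219), 0.46 for *H2-Ab1* (0.15, adjusted p = 0.335) and 0.43 for *H2-Aa* (0.15, adjusted p = 0.374), and 4 of the 9 genes had an unadjusted p under 0.05. Without labelled knockout 2 the slope of *Cd74* was 0.56 and was called (limma adjusted p = 0.0233). On *Cd68* 0% of genes were called in water, and on *Cd79a* 0.598%, with 0 of the 9 class II genes in each and 1 and 0 at an unadjusted p under 0.05. The genes called with *Cd79a*, and also with *Cd52*, included *Jchain*, *Mzb1*, *Tnfrsf17* and *Pou2af1*, 4 of the 4 plasma cell markers tested. Those called with *Cd79a* also included *H2-Eb2*, a lowly expressed class II beta chain gene near *H2-Eb1* (slope 0.58, standard error 0.10, limma adjusted p = 0.0371). Without water-treated control 3 every one of the positive calls on *Cd52* and on *Cd79a* was lost, those of *H2-Eb2* and the plasma cell markers included. *H2-Eb2* had 0.388 to 4.32 TPM in water and at most 0.201 TPM after DSS, and *H2-Ea-ps*, the E alpha locus, was listed at 0 in all 16 mice.

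With *Cd68* in water, r was positive for 7 of 9 class II genes (median 0.30, highest 0.65 for *H2-DMa*), and with *Cd79a* for 9 of 9 (median 0.56, highest 0.57). Without the 2 mice farthest from the median of the leukocyte gene, these medians were −0.11 and 0.03. Control 3, the water-treated mouse with the lowest *H2-Aa*, *H2-Ab1* and *Cd74*, had the lowest *Cd52* and *Cd79a* (50.8 and 7.13 TPM) but 92.9 TPM of *Cd68*, the second highest. Labelled knockout 2 had the highest *Cd79a* (91.1 TPM) and the lowest *Cd68* (41.7 TPM), with the second lowest *Cd74*.

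In the DSS-treated mice the median r was lower than in water with *Cd52* and *Cd79a*, but not with *Cd68*. *H2-DMa*, *H2-DMb2*, *H2-Oa*, *H2-Ob* and *Ciita* had a mean under 1 TPM there, and *Cd79a* stood at 0.591 to 3.05 TPM. Many of these r thus rest on low values and cannot be weighed against those in water. The r with *Cd52* was positive for 5 of 9 class II genes (median 0.10), with *Cd68* for 7 (median 0.39) and with *Cd79a* for 3 (median −0.07). The r of *H2-Ab1* with *Cd68* was 0.78 (exact permutation p = 0.0165, n = 7 mice) with a rho of 0.68 (p = 0.110), and that of *H2-DMb2* was 0.78 (exact permutation p = 0.0292) with a rho of 0.93 (exact permutation p = 0.00675). Without controls 1 and 3, the mice farthest from the median of *Cd68*, these r were 0.29 and 0.41. *H2-DMb2* had only 0 to 1.27 TPM in these mice, so its r and rho rest on low values. By limma, a positive slope was called for 0% of 10898 genes on *Cd52*, 0% on *Cd68* and 0.138% on *Cd79a*, and for 0 of the 4 class II genes that reached a mean of 1 TPM. Without labelled knockout 3 the positive calls on *Cd79a* were lost. At an unadjusted p under 0.05 there were 0, 1 and 0 of the 4, the 1 being *H2-Ab1* on *Cd68*.

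**Figure D4:**
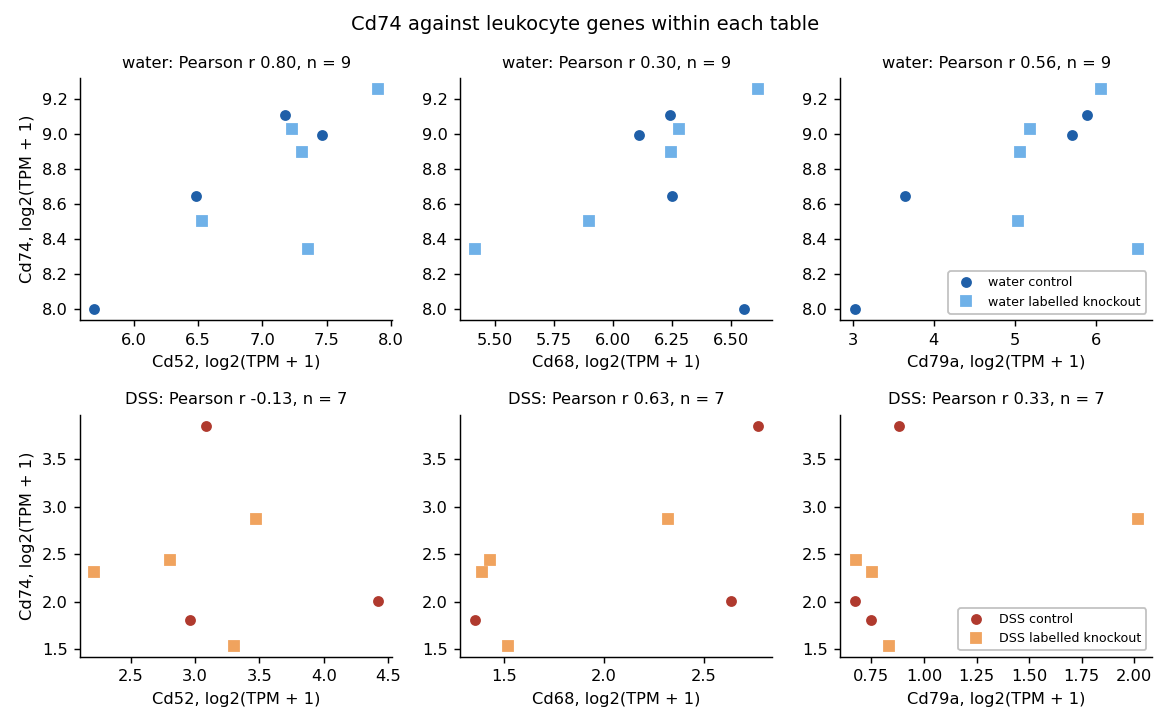
*Cd74* against *Cd52*, *Cd68* and *Cd79a* as log2(TPM + 1), with 1 point a mouse, in the 9 water-treated (top) and 7 DSS-treated mice (bottom), each panel with its own axes and Pearson's r. The clearest relation in water is that with *Cd52* (r = 0.80), in which control 3 lies at the lower left. The DSS panels give −0.13, 0.63 and 0.33.

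The genes most like *Cd74* in the 9 water-treated mice, of 6896 with a mean of at least 5 TPM that are not class II genes of the set, were *Gm2a*, *Cxcr4*, *Cx3cr1*, *Cst3* and *Samsn1* (r from 0.93 to 0.95). *Cx3cr1* is a chemokine receptor of intestinal macrophages, *Cxcr4* a chemokine receptor of many leukocytes, and *Cst3* a secreted cysteine protease inhibitor. The most like *H2-Ab1* were *Cxcr4*, *Cd209a*, *Gm2a*, *Cog7* and *Pacs2* (0.88 to 0.94), of which *Cd209a* encodes a lectin of dendritic cells. *Cd52* ranked 85 for *Cd74* and 122 for *H2-Ab1*. The macrophage genes *C1qa*, *Csf1r* and *Cd68* ranked lower, at 511, 751 and 1688 for *Cd74* and at 628, 920 and 1937 for *H2-Ab1*. *Epcam*, the gene of the protein used for sorting, had an r of −0.68 with *Cd74* and −0.55 with *H2-Ab1*. In the 7 DSS-treated mice the lists were different genes: *Klhl21*, *Lmna*, *Aar2*, *Cox5b* and *Klf4* for *Cd74* (0.97 to 0.98), and *Svbp*, *Isoc2b*, *Klk1*, *Tmem246* and *Gm1123* for *H2-Ab1* (0.97 to 0.98), with *Epcam* at 0.74 and 0.58. The mice share a sort and a table, 7354 genes were ranked over 7 mice, and these lists are a description.

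Genotype was compared within each treatment, the question of the study. None of the class II genes differed between controls and mice labelled knockout beyond the spread between mice. In water limma called 0 of 9 class II genes (0 at an unadjusted p under 0.05) beside 0.00905% of 11046 genes, and after DSS 0 of the 4 tested (0 at an unadjusted p under 0.05) beside 0.00918% of 10899 genes. In water the log2 difference, labelled knockout minus control, was 0.06 for *H2-Aa* (95% interval −0.53 to 0.65, limma adjusted p = 0.974), 0.08 for *H2-Ab1* (−0.53 to 0.69, adjusted p = 0.965) and 0.12 for *Cd74* (−0.48 to 0.71, adjusted p = 0.949). The widest estimate was −0.72 for *H2-DMb2* (−1.76 to 0.32, limma adjusted p = 0.865). After DSS the differences were −0.04 for *H2-Aa* (−1.14 to 1.06), −0.40 for *H2-Ab1* (−1.43 to 0.64), −0.27 for *Cd74* (−1.501 to 0.97) and 0.05 for *H2-DMb1* (−1.04 to 1.14), each with a limma adjusted p of 1.00. Exact two-sided permutation of the mean TPM gave p from 0.262 (*H2-DMb2*) to 0.913 (*H2-Aa*) over the 9 genes in water, where the smallest p possible is 0.00794. After DSS it gave 0.286 (*H2-Oa*) to 0.886 (*Ciita*), where the smallest is 0.0286. The intervals after DSS are wide: without control 3 the difference of *H2-Aa* was 0.54, that of *H2-Ab1* 0.10 and that of *Cd74* 0.38.

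**Figure D5:**
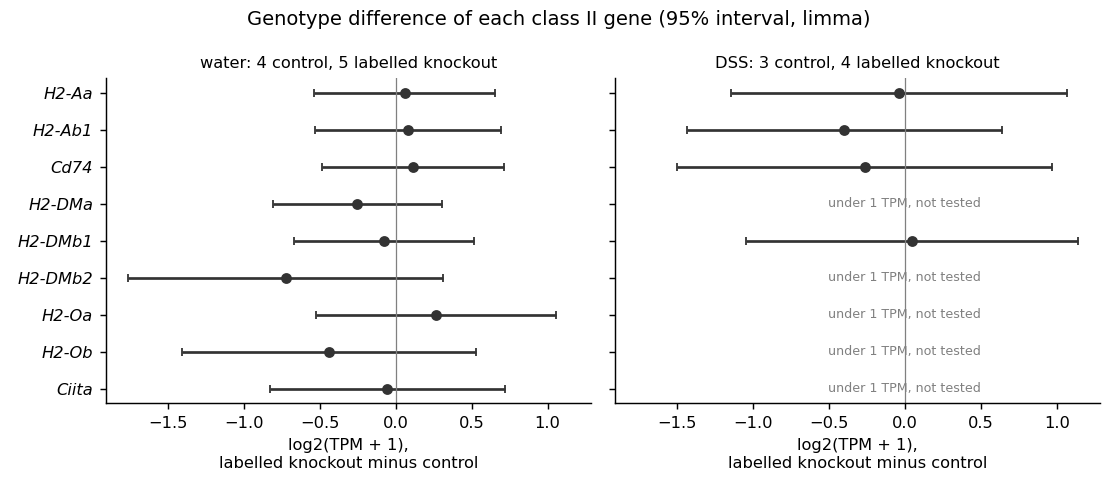
Difference of log2(TPM + 1) between mice labelled knockout and controls for each class II gene, with limma's 95% interval, in water (left, n = 5 and 4) and after DSS (right, n = 4 and 3). Every interval spans 0, and 5 genes with a mean under 1 TPM after DSS were not tested there.

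Between the cages of the water-treated mice, which are also the sexes, limma called 0 of 9 class II genes (0 at an unadjusted p under 0.05) beside 0.0362% of 11046 genes. *Cd74* was 0.48 higher in the female cage (95% interval −0.01 to 0.97, limma adjusted p = 0.848) and *H2-DMb1* 0.46 higher (−0.03 to 0.95, adjusted p = 0.848).

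The other genes of the pathway were described from fixed lists. Lysosomal processing enzymes were lower after DSS, but by less: *Ctss*, the cathepsin that trims the invariant chain, had 233 to 340 TPM in water and 92.9 to 118 TPM after DSS, *Ctsb* 115 to 183 and 61.7 to 89.6 TPM, and *Lgmn*, an asparaginyl endopeptidase, 89.5 to 212 and 18.1 to 44.9 TPM. All 5 enzymes found were lower after DSS in both genotypes (median difference −1.12 in controls and −0.93 in mice labelled knockout). *Cd74* over *Ctss* went from 0.816 to 2.07 in water to 0.0181 to 0.114 after DSS, without overlap.

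Promoter factors and genes of the interferon-gamma pathway went in both directions. Over 7 promoter factors the median difference was 0.09 in controls and 0.45 in mice labelled knockout (range −0.29 to 0.91 and −0.06 to 0.83), with 2 and 1 of the 7 above water without overlap. *Nfyc* had 16.4 to 26.3 TPM in water and 24.4 to 28.9 TPM after DSS, *Nfyb* 4.72 to 9.25 and 11.5 to 15.1 TPM, and *Rfxap*, a subunit of RFX, 1.5 to 5.75 and 4.77 to 9.73 TPM. Over 16 genes of the interferon-gamma pathway the median difference was −0.02 and 0.01 (range −1.15 to 0.57 and −1.84 to 1.01), with 1 and 1 below water and 1 and 3 above it without overlap. Over all genes the shares below water were 8.12% in controls and 10.1% in mice labelled knockout, and the share above was not counted. *Gbp3*, an interferon-induced GTPase gene named after its values were seen, was −1.15 in the controls, where the ranges overlapped, and −1.84 in the mice labelled knockout, where they did not. *Ifngr1*, a receptor chain, had 91.7 to 105 TPM in water and 88.3 to 106 TPM after DSS, *Irf1*, a transcription factor, 60.8 to 88.6 and 57.0 to 116 TPM, and the kinase gene *Jak1* 26.9 to 39.0 and 34.6 to 40.2 TPM. Of 7 genes of surface turnover and costimulation, *Cd86*, a ligand of CD28, had 2.04 to 12.2 TPM in water and 0.182 to 0.675 TPM after DSS. *Cd274*, the gene of PD-L1, had 3.8 to 22.8 and 0.965 to 18.8 TPM and *March8*, a ubiquitin ligase of surface proteins, 2.73 to 12.3 and 5.41 to 12.4 TPM. Genotype was called by limma for 0 genes of these 5 lists in either treatment. With *Cd52* in water 1 of the 5 surface turnover genes tested was called, *Cd274* (slope 0.91, standard error 0.16, limma adjusted p = 0.0416), beside 0.652% of all genes. This call was lost without water-treated control 3.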

How the data were processed

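RNA of EpCAM+ cells sorted from the distal colon of 16 mice had been sequenced, and reads had been assigned to mouse transcripts (mm10) with kallisto and sleuth per the labels. The transcript release is not given in the sources used here. The authors deposited TPM per mouse for principal transcripts in 2 tables, one for each treatment. Each held 29373 lines, of which 385 repeated others and were dropped, leaving 28988 transcripts of 22396 gene symbols. Further columns hold p-values and ratios of the authors' own comparison and were not used. Read counts are not in the tables, so depth is unknown. Summed TPM ranged from 487469 to 861109, while median-of-ratios factors within a table ran from 0.970 to 1.03. Only listed transcripts are included, and the cause of the unequal sums was not tested.

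TPM were summed per gene and set to log2(TPM + 1). Genes whose mean reached 1 TPM were tested within a table by limma 3.58.1 (R 4.3.3) with a variance trend and Benjamini-Hochberg adjustment over all genes, called at an adjusted p under 0.05. The main tests had no covariate. Exact two-sided permutation tests served for single genes, and correlations were tested by exact permutation of the pairings (ranks by scipy 1.17.1). The scripts were tested on simulated data. GEO's labels gave the groups, and replicate numbers name different animals. Alternatives were another pseudocount, other filters and scalings, covariates, a replicate block and leaving out each mouse. Class II genes were all named. Of the other pathway lists any gene called was named, and otherwise the 3 with the highest mean TPM. Likeness lists give the 5 genes with the highest r. The genes, lists and tests were chosen with earlier results of these data known. RefSeq (GRCm38.p6) gave the promoters and GENCODE M21 the positions and transcripts. The level of 1 B cell marker is not reported here.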

Additional observations from a re-analysis of the deposited data

Results flagged for a closer look

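Each of the 9 class II genes and the 3 leukocyte genes was checked in the 3 groups of 4 or 5 mice for a mouse that stood apart from its group, 36 checks of which chance marks about 1 in 20. None of the class II genes had such a mouse. In the DSS-treated mice labelled knockout, replicate 3 had 4.00 TPM of *Cd68* against 1.63 to 1.87 TPM in the other 3, and 3.05 TPM of *Cd79a* against 0.599 to 0.785 TPM. The same mouse had 14.1 TPM of *H2-Aa* and 6.32 TPM of *Cd74*, the highest of its group, but 0.146 TPM of *H2-DMa*, the lowest.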

How the results depend on the processing

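All 18 differences between DSS and water (9 class II genes, both genotypes) stayed below 0 under each scaling and with a pseudocount of 0.1, where they ran from −6.83 to −3.16. No class II gene was called for genotype or cage under any alternative run, and of the slopes only that of *Cd74* on *Cd52* in water was called, without labelled knockout 2 (0 to 1 class II genes called when leaving out each mouse). Genotype differences near 0 changed sign. For *H2-Aa* after DSS the value was 0.18 with the replicate block and 0.024 with cage as a covariate. With *Cd52* as a covariate in water it was −0.23 for *H2-Aa*, −0.22 for *H2-Ab1* and −0.20 for *Cd74*. The causes were not tested. Leaving out each mouse, the differences after DSS ran from −0.42 to 0.54 for *H2-Aa*, −0.97 to 0.10 for *H2-Ab1*, −0.64 to 0.38 for *Cd74* and −0.49 to 0.33 for *H2-DMb1*. In water they ran from −0.16 to 0.24 for *H2-Aa*, −0.15 to 0.27 for *H2-Ab1*, −0.11 to 0.26 for *Cd74*, −0.24 to 0.077 for *H2-DMb1* and −0.28 to 0.17 for *Ciita*. The number of class II genes with a positive r after DSS was 3 to 5 with *Cd52* and 2 to 7 with *Cd79a* when leaving out each mouse. With *Cd79a* it was 5 with a pseudocount of 0.1 and 5 with deviations from cage means, the latter chosen after seeing the data. Over all genes, the number called in either direction ran over the alternatives from 0 to 3 for genotype after DSS, 0 to 4 for genotype in water and 3 to 7 for cage. The number called with a positive slope ran from 0 to 76 for *Cd52* and 0 to 90 for *Cd79a* in water, and 0 to 145 for *Cd79a* after DSS. In water the 0 for *Cd52* and for *Cd79a* came without control 3. Replicate numbers did not pair the mice: deviations of same-numbered mice correlated at −0.08 to 0.09 in water and −0.20 to −0.03 after DSS, and 2 of 4 and 0 of 3 numbers were best matched by their own. With the replicate block 0 class II genes were called. TPM without counts gives no counting error, which limits the values under 1 TPM most.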

Other observations

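Of the transcripts listed for *Cd74*, a minor one had 9.13 TPM in water-treated control 3 and 2.09 TPM in DSS-treated control 2. Of the 31-base windows of the listed class II transcripts, 63.0 to 100% also occur in other transcripts of the same gene, and at most 1.74% occur in other genes except for *H2-DMb1* and *H2-DMb2*.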
